A study of Mus musculus with 83 samples.

Results

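The miR-302/367 cluster of the mouse genome encodes Mir302b, Mir302c, Mir302a, Mir302d and Mir367, and it lies inside the gene Larp7. These 5 miRNA features and the Larp7 feature were taken by name from a table of 32101 annotated features, so that 6 of 32101 features are described here. The table was made from small RNA sequencing of 83 libraries, which counted reads of 20 to 24 nt over whole features. The main libraries came from mouse embryonic stem cells (ESCs), titled either control or DNMT1KO, on days 1, 3, 6, 9, 11 and 25, with 3 libraries per genotype and day. By the methods of the study these were Dnmt1 loxP/loxP cells of a single ESC line in which tamoxifen-induced Cre removed Dnmt1, the maintenance DNA methyltransferase. The control cells therefore carried the same floxed alleles, while the labels give the strain as E14 and the methods give it as C57BL/6. Cells were grown in serum with LIF, on feeder cells or on gelatin, and which library had feeders is not given in the sources used here. A second set held small RNA recovered by immunoprecipitation of AGO2, an Argonaute protein that binds miRNAs, in 4 control and 4 Dnmt1 KO libraries, which the study places on day 9. There was also 1 ESC library per genotype titled none, whose preparation the labels do not give. Single libraries came from female and male primordial germ cells (PGCs) at embryonic days E13.5 and E14.5, sorted from C57BL/6J embryos that carried the Oct4-GFP transgene. The remaining 30 ESC and 3 PGC libraries bear the suffix R1 and entered only an alternative fit, since nearly all of their counts were even numbers. Among them, the day 11 libraries set against the Dnmt1 KO are titled WT and not control. Groups were taken from the titles, because the genotype tags go against the titles in the AGO2 set, in the libraries titled none and, for days 1 to 9, in the R1-suffixed libraries. The labels do not say whether replicates were separate cultures, so that p-values measure the spread between these libraries only, which may be technical.

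miRNAs are cut from hairpin precursors, loaded into Argonaute proteins and guided to target mRNAs mainly by bases 2 to 8, the seed. The miR-302 miRNAs share the seed of the ESC-specific cell cycle regulating miRNAs of the miR-290-295 cluster and are known from pluripotent cells of the early and post-implantation embryo, whereas miR-367 carries the seed of the miR-25/92 family. LARP7, the protein of the host gene, binds the 3' end of the 7SK RNA and holds it in the particle that restrains the transcription elongation factor P-TEFb.

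In the build of the table (NCBIM37), Larp7 covered chromosome 3 from 127239872 to 127256266 on the minus strand. The 5 miRNAs lay on the plus strand, antisense to Larp7, within intron 8 of its 13-exon protein-coding transcript. In order along the chromosome they were Mir302b (127248146 to 127248219), Mir302c (127248281 to 127248348), Mir302a (127248414 to 127248482), Mir302d (127248542 to 127248607) and Mir367 (127248651 to 127248725). The whole cluster spanned 580 bases, with gaps of 43 to 65 bases between neighbouring hairpins. Reads of the miRNAs therefore also fell within the span of Larp7. The sources used here do not state if counting took strand into account. Larp7 held nearly the same number of reads as the 5 miRNAs (2135 and 2135 in control replicate 1 of day 9). Reads antisense to Larp7 were therefore counted for it.

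All 5 features had the sequence of a RefSeq hairpin, and 9 mature arms were matched in the RefSeq table of assembly GRCm38.p6. The 3' arm of miR-302a was not among these 9 and is not shown, so that its seed cannot be read from the sets below. The arms below are shown because they are the molecules read, with the seed (bases 2 to 8) in capitals. In the first set of 3' arms, the seed AAGUGCU of miR-302b and miR-302d is also that of miR-291a, miR-294 and miR-295 of the ESC cluster. miR-302c-3p starts 1 base later, and its seed is shifted by that base.
miR-302b-3p: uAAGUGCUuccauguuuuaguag
miR-302d-3p: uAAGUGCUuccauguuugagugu
miR-302c-3p: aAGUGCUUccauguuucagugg
miR-291a-3p: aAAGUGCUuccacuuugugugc
miR-294-3p: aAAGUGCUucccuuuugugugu
miR-295-3p: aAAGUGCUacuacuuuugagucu
In the second set, miR-367-3p has the seed AUUGCAC, shown beside other holders of that seed, among them miR-363-3p, from an X-linked cluster, and miR-92a-3p, which both Mir92-2 of that cluster and Mir92-1 of the chromosome 14 cluster encode.
miR-367-3p: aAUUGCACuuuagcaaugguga
miR-363-3p: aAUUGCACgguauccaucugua
miR-92a-3p: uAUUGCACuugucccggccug
miR-25-3p: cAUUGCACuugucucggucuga
The third set gives the 5' arms of the miR-302 hairpins, of which those of miR-302b, miR-302c and miR-302d share CUUUAAC and that of miR-302a differs from them.
miR-302a-5p: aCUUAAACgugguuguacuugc
miR-302b-5p: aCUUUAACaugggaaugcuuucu
miR-302c-5p: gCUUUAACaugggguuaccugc
miR-302d-5p: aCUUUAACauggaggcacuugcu
Counts were made over whole hairpins, so that the 5' and 3' arms of one hairpin cannot be told apart. With both strands searched, the first 20 bases of each of the 9 arms occurred once in the genome. Of the 10 pairs of hairpins only Mir302a and Mir302b shared a 20-base window, and they shared 1.

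The 36 time course libraries held 521066 to 6239008 reads over features (median 3002488), with the fewest on day 25 (521066 to 815523). The miR-290-295 miRNAs, which define ESCs, summed to 110501 to 208803 reads per 1000000 reads over features (RPM) in them, so that the label ESC held against its markers. The feeder and mesenchymal miRNAs Mir143, Mir145, Mir21, Mir199a-2 and Mir214 were also read in these libraries, at a sum between 6923 and 48042 RPM, while Mir199a-1 was at 0. Reads of 20 to 24 nt over Dnmt1 itself had a median of 45.8 RPM over the 18 control libraries and of 44.1 RPM over the 18 Dnmt1 KO libraries, with ranges that overlapped (23.1 to 95.02 and 18.1 to 64.3 RPM). Such short reads do not measure the mRNA, so that they do not check the genotype titles. In these bulk samples, fewer cells of a type and less miRNA per cell cannot be told apart.

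The summed level of the 5 miRNAs was highest on day 1, fell in both genotypes to day 11 and was high again on day 25. In control cells the day 1 libraries held 1167, 969 and 1065 RPM and in Dnmt1 KO cells 994, 1080.0 and 1083 RPM, so that the genotypes overlapped. On day 3 the control libraries held 706, 619 and 650.0 RPM against 502, 442 and 429 RPM in the Dnmt1 KO. On day 6 control libraries held 567, 527 and 605 RPM, whereas Dnmt1 KO libraries held 155, 162 and 164 RPM. Every control library of days 3 and 6 lay above every Dnmt1 KO library of its day, and the distance was far wider on day 6. On day 9 the control libraries held 516, 366 and 365 RPM against 157, 129.7 and 131 RPM. On day 11 the control libraries held 139.8, 106 and 95.6 RPM, and the Dnmt1 KO libraries held 136, 101 and 103 RPM. The gap was thus present on day 9 and gone on day 11, when the control libraries had reached the level of the Dnmt1 KO libraries. On day 25 both genotypes were higher than on day 11, at 956, 983 and 849.8 RPM in controls and 458, 517 and 419 RPM in the Dnmt1 KO, again without overlap. As a percentage of the control mean, the Dnmt1 KO mean was 98.6 on day 1, 69.5 on day 3, 28.3 on day 6, 33.5 on day 9, 99.5 on day 11 and 50.0 on day 25.

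**Figure D1:**
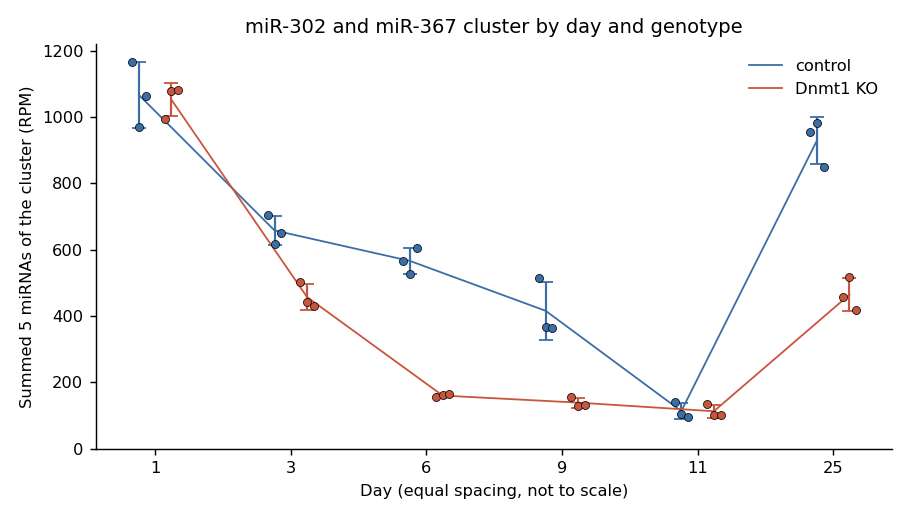
Summed RPM of the 5 cluster miRNAs by day (linear axis, days at equal spacing), with a point per library, control in blue and Dnmt1 KO in red, bars of mean ± SD over 3 libraries and lines through the means. The genotypes overlap on days 1 and 11 and are apart on days 3, 6, 9 and 25, with the Dnmt1 KO mean at 160.5 RPM and the control mean at 566 RPM on day 6.

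In order of their mean, the groups ran from day 1 control (1067 ± 99.0 RPM, SD, n = 3) and day 1 Dnmt1 KO (1052 ± 50.4 RPM) at the top, which overlapped, to the PGC libraries at the bottom. The next groups were control day 25 (929 ± 70.2 RPM), control day 3 (658 ± 44.4 RPM) and control day 6 (566 ± 38.8 RPM), with the widely spread AGO2 groups lying over them. Below them came Dnmt1 KO day 25 (465 ± 49.6 RPM), Dnmt1 KO day 3 (457 ± 38.7 RPM) and control day 9 (416 ± 86.9 RPM), whose ranges overlapped one with the next. Dnmt1 KO day 6 (160.5 ± 4.52 RPM), Dnmt1 KO day 9 (139 ± 15.1 RPM), control day 11 (114 ± 23.2 RPM) and Dnmt1 KO day 11 (113 ± 19.6 RPM) formed the lowest ESC groups, and each overlapped the next. The range of the Dnmt1 KO libraries of day 9 thus overlapped that of the control libraries of day 11.

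Before any genotype comparison, the course in control cells was tested against day 1. The test was limma on log2(RPM + 1) after TMM scaling (a factor per library that aligns most features) over 2582 features with at least 10 RPM in at least 3 libraries, and a call is a Benjamini-Hochberg adjusted p below 0.05 over all of these features. A fold change on this scale understates the change of features near the pseudocount, which applies to Mir302c and Mir367. All 6 members passed the filter. On day 3, Larp7, Mir302a, Mir302b and Mir302d had fallen by 0.61 to 0.88 on the log2 scale and passed the test, where 15.5% of all features were called. Mir302c (-0.55) and Mir367 (-0.66) did not pass on that day. All 6 members were lower than on day 1 on day 6 (28.0% of all features called), on day 9 (19.1%) and on day 11 (34.9%), and their log2 changes lay between -1.11 and -0.62 on the first, -1.43 and -1.10 on the second and -3.51 and -2.91 on the last of these days. The call of Mir302c on day 6 (-0.88, adjusted p = 0.0283) was lost without a filter (adjusted p = 0.176) and with TMM over all features (0.0966). It was also lost without any 1 of control replicates 1 and 3 of day 1 and control replicates 1 and 3 of day 6. On day 25, when 50.9% of all features were called, only Larp7 (-0.35, adjusted p = 0.0247) and Mir302a (-0.45, adjusted p = 0.016) were still called lower than on day 1. This count of 2 depended on single libraries. Without control replicate 3 of day 25 it was 0, and without control replicate 1 or replicate 3 of day 1 it was 1. As a share of its day 1 level, the sum of the 5 miRNAs in control cells was 61.7% on day 3, 53.1% on day 6, 39.0% on day 9, 10.7% on day 11 and 87.1% on day 25. In Dnmt1 KO cells the same shares were 43.5%, 15.3%, 13.2%, 10.7% and 44.2%. Both genotypes thus stood at the same share of their starting level on day 11.

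Day 1 showed no call between genotypes in any of the 6 members (3.80% of all features called, limma, 0 of 6 members also at an unadjusted p below 0.05). The log2 fold changes of Dnmt1 KO over control ran from -0.37 (Mir367) to -0.02 (Mir302d), and the sign of Mir302b, Mir302d and Larp7 turned under other scalings of the libraries.

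On day 3, Larp7 (-0.51 ± 0.13, SE, adjusted p = 0.0127), Mir302b (-0.66 ± 0.15, adjusted p = 0.00434) and Mir367 (-0.79 ± 0.24, adjusted p = 0.0409) were lower in the Dnmt1 KO, that is 3 of 6 members where 6.24% of all features were called. Mir302a (-0.42 ± 0.16), Mir302d (-0.47 ± 0.16) and Mir302c (-0.93 ± 0.31) had negative fold changes that did not pass. The libraries of Mir302b held 110.4, 119.7 and 96.1 RPM in controls and 63.9, 76.6 and 62.0 RPM in the Dnmt1 KO. Those of Mir367 held 24.7, 21.6 and 23.3 RPM in controls and 19.0, 8.60 and 12.7 RPM in the Dnmt1 KO, and those of Mir302c held 20.4, 25.4 and 26.9 RPM and 9.89, 13.2 and 13.3 RPM. Each of these 3 miRNAs kept the genotypes apart, although the calls rested on few libraries. Without Dnmt1 KO replicate 3 or control replicate 1 of day 3 the count of members called fell to 1. The call of Mir367 was lost without any 1 of Dnmt1 KO replicates 2 and 3 and the 3 control replicates of that day, and without Dnmt1 KO replicate 2 its value was -0.52.

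On day 6 all 6 members were lower in the Dnmt1 KO, with log2 fold changes from -2.07 to -1.64, where 23.0% of all features were called. The abundant Mir302d held 239, 234 and 283 RPM in controls and 77.3, 68.0 and 73.3 RPM in the Dnmt1 KO, a fold change of -1.88 ± 0.16 (adjusted p = 1.36e-12). Mir302a held 200.5, 171 and 186 RPM against 50.0, 57.2 and 56.6 RPM (-1.85 ± 0.16, adjusted p = 1.46e-12). Mir302b held 94.0, 90.8 and 104 RPM against 20.7, 27.5 and 23.9 RPM, with a fold change of -2.07 ± 0.15 (adjusted p = 2.93e-14). No Dnmt1 KO library of these 3 miRNAs came near a control library, and the replicates of each genotype lay close together.
The scarcer members moved with them. Mir302c held 16.8, 19.8 and 14.7 RPM in controls and 2.67, 5.06 and 5.80 RPM in the Dnmt1 KO on day 6 (-1.86 ± 0.31, adjusted p = 8.23e-06), and Mir367 held 17.1, 11.6 and 17.0 RPM against 4.67, 4.74 and 4.09 RPM (-1.64 ± 0.24, adjusted p = 9.01e-07). These values rested on 8 to 17 reads per Dnmt1 KO library, and the groups still did not overlap. Larp7 fell by 1.90 ± 0.13 (adjusted p = 4.41e-15), and nearly all of its reads were those of the miRNAs within its span. The median of the 6 members was -1.87 beside a median of 0.14 over all features tested. Mir302b, the lowest member, had the lowest value of all features, of which 0.0387% were at or below it, with Mir302b itself counted.

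On day 9 all 6 members were again lower in the Dnmt1 KO, with log2 fold changes from -1.54 to -1.34 (18.4% of all features called, median of the members -1.47 beside 0.09 over all features). Mir302d held 224, 158 and 149 RPM in controls against 74.6, 57.1 and 58.0 RPM (-1.34, adjusted p = 7.68e-09), and Mir302a held 178, 122 and 128 RPM against 47.2, 45.4 and 47.3 RPM (-1.46, adjusted p = 8.94e-10). Control replicate 1 was the highest control library in both, and the lowest control library remained above every Dnmt1 KO library. Mir302b held 79.6, 62.5 and 60.5 RPM against 26.5, 19.7 and 17.5 RPM (-1.52, adjusted p = 1.54e-10). Mir302c (-1.54, adjusted p = 0.000172) and Mir367 (-1.47, adjusted p = 6.79e-06) were at 13.9 to 16.9 RPM and 10.1 to 17.9 RPM in controls. In the Dnmt1 KO the former was at 4.04 to 4.20 RPM and the latter at 3.23 to 4.33 RPM, so that all 5 miRNAs kept the genotypes apart.

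On day 11 none of the 6 members was called (8.64% of all features called, limma, 0 of 6 members at an unadjusted p below 0.05), and the fold changes ran from -0.15 (Mir302b) to 0.27 (Mir302a). Mir302d held 64.6, 40.1 and 39.96 RPM in controls and 54.3, 38.3 and 46.7 RPM in the Dnmt1 KO. Mir302a held 42.3, 31.5 and 28.0 RPM and 49.5, 36.2 and 31.2 RPM. Both ranges overlapped between genotypes. For Larp7 the difference was 0.08 with a 95% interval of -0.18 to 0.35 on the log2 scale, an interval that does not reach the size of the difference on day 3, 6 or 9. Several members changed sign under other scalings or without 1 library on this day, and no direction is given for them.

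On day 25, 5 of 6 members were lower in the Dnmt1 KO, where 35.0% of all features were called. Mir302d held 364, 388 and 343 RPM in controls and 195, 215 and 152 RPM in the Dnmt1 KO (-0.86, adjusted p = 3.69e-05). Mir302a held 323, 339.7 and 277 RPM against 153, 177 and 148 RPM (-0.86, adjusted p = 3.27e-05), and Mir302b held 170.3, 190.0 and 147 RPM against 65.9, 87.1 and 73.9 RPM (-1.04, adjusted p = 7.8e-07). Controls were about a factor of 2 above the Dnmt1 KO in these 3 miRNAs without overlap. Mir302c held 50.2, 23.0 and 13.49 RPM against 9.65, 12.8 and 5.69 RPM (-1.29, adjusted p = 0.000913), in libraries with 3 to 28 reads of it, and the lowest control library was just above the highest Dnmt1 KO library. With day 25 fitted alone it was not called (adjusted p = 0.0872), and without control replicate 1 its value was -0.78 (adjusted p = 0.0349). Mir367 held 48.4, 42.2 and 68.7 RPM against 35.4, 25.6 and 39.8 RPM and did not pass (-0.53 ± 0.24, adjusted p = 0.0826), although its groups did not overlap. It passed with library totals (-0.64, adjusted p = 0.0367), without control replicate 2 (-0.69, adjusted p = 0.0421) and without Dnmt1 KO replicate 3 (-0.69, adjusted p = 0.0408), so that the count of 5 turned on these choices. Of all members only Mir367 had a mean above its day 1 mean on day 25, at 147% of it in controls and 113% in the Dnmt1 KO, and this rise in controls was not called (0.39, adjusted p = 0.178).

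**Figure D2:**
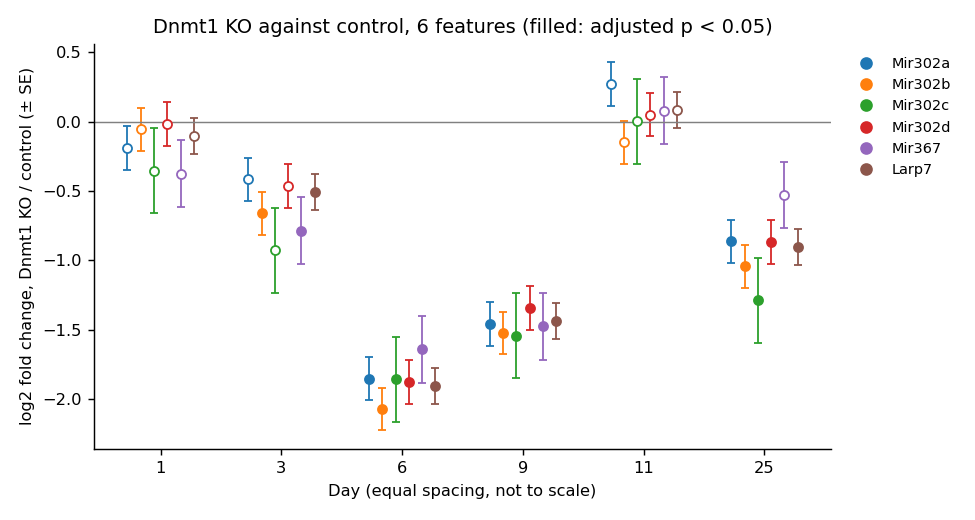
Log2 fold change of Dnmt1 KO over control, on the log2(RPM + 1) scale, for the 6 members by day, with bars of ± 1 SE from the limma fit and filled points where the adjusted p was below 0.05. The points of all 6 members lie between -1.64 and -2.07 on day 6 and around 0 on days 1 and 11.

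Whether the genotype difference itself changed between days was tested as the interaction of genotype with consecutive days. Consecutive tests share the libraries of a day. From day 1 to day 3 the change was called in 0 of 6 members (7.09% of all features called, limma, 2 of 6 members at an unadjusted p below 0.05), with values of -0.23 to -0.61. From day 3 to day 6 the difference widened in Larp7 (-1.40, adjusted p = 4.77e-07), Mir302a (-1.44), Mir302b (-1.41) and Mir302d (-1.41), that is 4 of 6 members beside 7.75% of all features, while Mir302c (-0.93, adjusted p = 0.209) and Mir367 (-0.85, adjusted p = 0.127) did not pass. Without Dnmt1 KO replicate 2 of day 3 Mir367 passed as well (-1.12). From day 6 to day 9 no member was called (0.503% of all features called, limma, 3 of 6 members at an unadjusted p below 0.05), with values of 0.17 to 0.55. From day 9 to day 11 the change was positive and called in all 6 members, at 1.37 to 1.73, beside 4.73% of all features. From day 11 to day 25 the difference reopened in Larp7 (-0.99), Mir302a (-1.13), Mir302b (-0.89), Mir302c (-1.29) and Mir302d (-0.92), beside 20.5% of all features, whereas Mir367 (-0.61, adjusted p = 0.217) did not pass. The calls of Mir302c in these last 2 steps rested on few reads. From day 9 to day 11 its call was lost without any 1 of Dnmt1 KO replicates 1 and 2 of day 11, control replicate 3 of day 11, Dnmt1 KO replicates 1 and 3 of day 9 and the 3 control replicates of day 9. From day 11 to day 25 it was lost without any 1 of Dnmt1 KO replicates 1 and 2 and control replicate 3 of day 11, Dnmt1 KO replicate 3 of day 25 and control replicate 1 of day 25, and without the last its value was -0.79.

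The makeup of the cluster was compared as the share of each miRNA in the sum of the 5. The largest share belonged to Mir302d, with a mean of 42.9% in the 18 Dnmt1 KO and 41.7% in the 18 control libraries of the time course. Mir302a followed at 34.4% and 33.4% and Mir302b at 16.3% and 18.0%, while Mir302c held 2.73% and 3.35% and Mir367 held 3.64% and 3.62%. Per kilobase of hairpin, Mir302d was the highest member in 36 of 36 time course libraries, and Mir302b lay above Mir302c and Mir367 in all of them. This measure favours the shorter hairpins. By share of reads, Mir302a (38.7%) was above Mir302d (38.1%) in control replicate 2 of day 1. Some shares moved between days while the order of the 3 larger shares by group mean stayed the same in the time course. In controls Mir302a went from 34.9%, 38.7% and 35.9% of the sum on day 1 to 30.3%, 29.8% and 29.3% on day 11, without overlap. Mir302b held 18.2%, 17.0% and 18.4% of it on day 1 and 17.0%, 25.28% and 23.3% on day 11. The share of Mir302c was lower in the Dnmt1 KO on 6 of 6 days and that of Mir302b on 5 of 6 days, as a description without a test. On day 25 the share of Mir367 was 5.81% ± 2.00 (SD, n = 3) in controls and 7.39% ± 2.29 in the Dnmt1 KO, above its share in any library of days 1 to 11 (1.95% to 3.79%) in the group means. These are shares of reads.

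**Figure D3:**
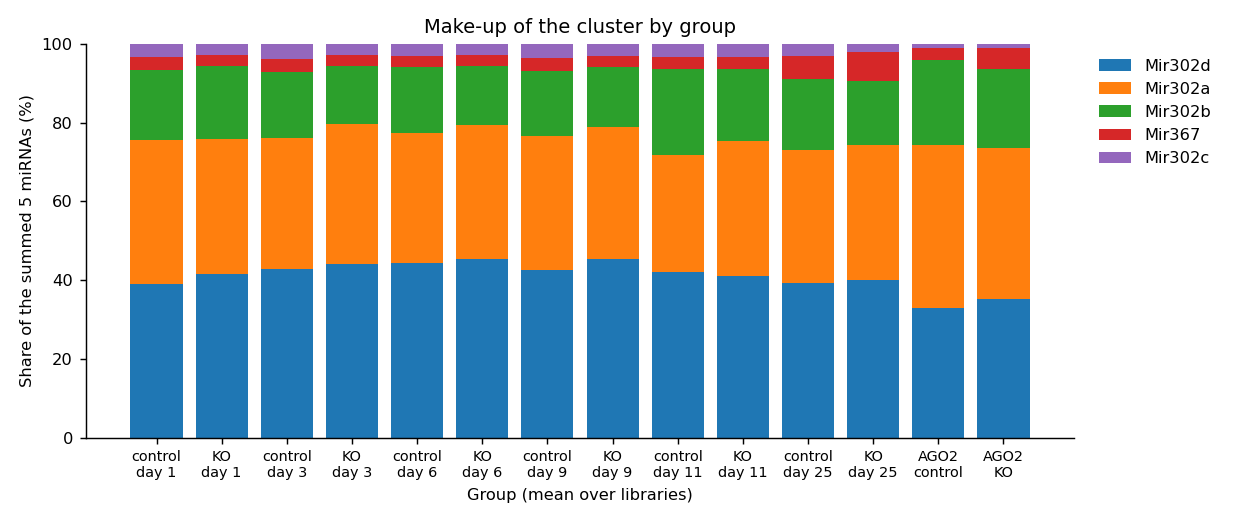
Share of each of the 5 miRNAs in their summed RPM, in percent, as stacked bars by genotype and day (means of 3 libraries) and in the AGO2 groups (means of 4 libraries). In the time course Mir302d is the largest part, followed by Mir302a and Mir302b, and the small share of Mir367 is largest on day 25. In both AGO2 groups Mir302a is the largest part, followed by Mir302d.

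Few reads over Larp7 lay outside the miRNAs in ESCs. Its feature held 97.2 to 1165 RPM in the time course, and after the reads of the 5 miRNAs were taken off, -3.45 to 4.07 RPM were left on days 1 to 11. On day 25 the difference was negative in 6 of 6 libraries, at -20.8 to -5.12 RPM, which is 4 to 17 reads fewer over Larp7 than over the 5 miRNAs inside it. How a read inside both spans was assigned is not given in the sources used here. Over the 36 libraries 11 had a negative difference. Dnmt1 KO minus control was 1.28 RPM over the 6 days, which did not pass a two-sided permutation test within days (p = 0.127, 100000 permutations). Without control replicate 2 of day 25 the difference was 1.79 RPM (permutation p = 0.0233). With the replicate number as a block the 1.28 RPM passed the permutation test, as given in the last paragraph. The largest daily difference was that of day 25 (3.27 RPM), where every library had a negative value. Per day the exact permutation p was between 0.2 and 1.0, and 3 against 3 libraries cannot go below 0.1. The fold changes of Larp7 given above thus restate those of the miRNAs and do not measure the Larp7 transcript, whose mRNA is not read by 20 to 24 nt fragments.

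The partners of LARP7 in the 7SK particle were looked up by name. Of 336 such features, nearly all of them copies named 7SK, 2 passed the filter. These were 1 feature named 7SK (mean 88.9 RPM) and Ccnt2, which encodes the cyclin T2 subunit of P-TEFb (mean 22.1 RPM). Neither was called between genotypes on any of the 6 days, with fold changes of -0.49 to 0.58 for 7SK and -0.46 to 0.21 for Ccnt2. Reads of the many near-identical 7SK copies cannot be assigned to one of them with certainty.

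The miRNAs that share a seed with the cluster were compared with it by lists. In the miR-290-295 cluster, whose Mir291a, Mir294 and Mir295 carry the miR-302 seed, no member was lower on day 6, when the cluster described here stood at 28.3% of control. Of its 7 members Mir290 (0.40) and Mir293 (0.33) were higher in the Dnmt1 KO on that day, while the seed sharers Mir291a (0.10), Mir294 (0.06) and Mir295 (0.14) did not pass, and the list median was 0.10 beside 0.14 over all features. The abundant Mir295 (mean 73145 RPM) and Mir292 (24061 RPM) were read at levels far above the summed miR-302 miRNAs. That count of 2 of 7 is near the 23.0% of all features called on day 6, and nothing is read from it. On day 1 (3.80% of all features called) and day 3 (6.24%), 1 of 7 was higher. On day 9 (18.4%) 2 of 7 were higher with a list median of -0.05, and nothing is read from that count either. On day 11 (8.64%) 0 of 7 were called. On day 25, when 35.0% of all features were called, 5 of 7 were lower with a list median of -0.39, among them Mir291a (-0.56), Mir294 (-0.59) and Mir295 (-0.39). Of these 2 ESC clusters, both had members called lower in the Dnmt1 KO on day 25, while on days 6 and 9 no member of the miR-290-295 cluster was.

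The 5 hairpins with the seed of miR-367 (Mir25, Mir32, Mir92-1, Mir92-2, Mir363) had 0 members called on day 1, 3 lower on day 3 (list median -0.40), 4 lower on day 6 (-0.44), 3 lower on day 9 (-0.34), 1 lower on day 11 (-0.23) and 5 lower on day 25 (-0.62). None was called higher on any day. Of all features, 3.80%, 6.24%, 23.0%, 18.4%, 8.64% and 35.0% were called on these days in turn, and nothing is read from the 1 call of day 11. Mir92-1, the most abundant (mean 40989 RPM), fell by 0.44 on day 6 and by 0.62 later, on day 25. Mir92-2 of the X-linked cluster (mean 17776 RPM) fell by 0.87 on day 6 and by 0.86 on day 25, and Mir363 fell by 1.00 on day 6. Mir92-1 and Mir92-2 give the same mature miRNA, so that their reads cannot be told apart with certainty.

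The miR-17 family (Mir17, Mir20a, Mir20b, Mir93, Mir106a, Mir106b), whose seed is that of miR-302 moved by a base, had 0 of 6 members called on day 1 and 2 of 6 lower on day 3. On days 6, 9, 11 and 25 all 6 were lower in the Dnmt1 KO, with list medians of -0.81, -0.77, -0.61 and -1.25. The shares of all features called were 3.80% on day 1 and 6.24% on day 3, then 23.0%, 18.4%, 8.64% and 35.0% on the later days. Mir93 (mean 4152 RPM) fell by 0.54 on day 6 and by 1.60 on day 25, and Mir17 (1325 RPM) fell by 0.78 and by 1.21. This family was therefore still lower on day 11, when no member of the miR-302/367 cluster was called.

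**Figure D4:**
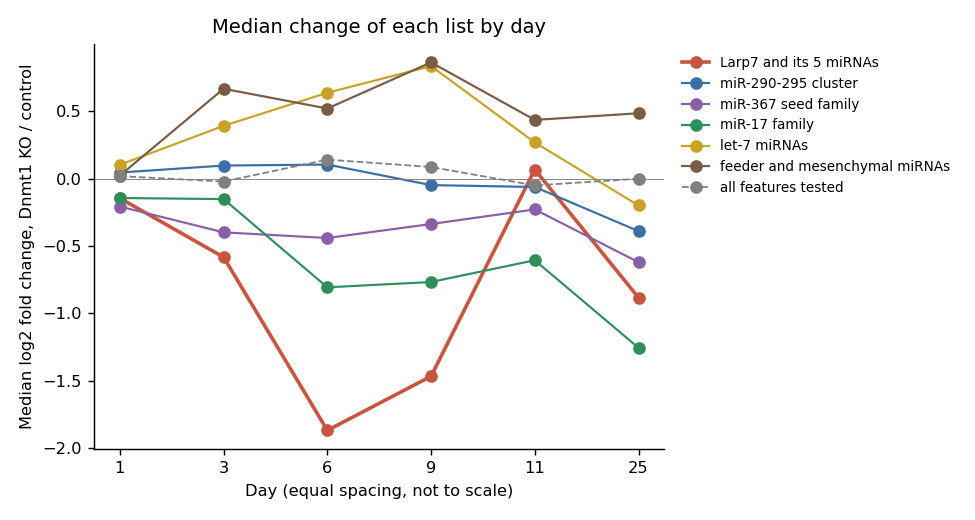
Median log2 fold change of Dnmt1 KO over control by day for the miR-302/367 cluster with Larp7, the miR-290-295 cluster, hairpins with the miR-367 seed, the miR-17 family, the feeder and mesenchymal miRNAs, the let-7 miRNAs and all features tested. The cluster median is the lowest of these on days 6 and 9, at -1.87 and -1.47, and lies near that of all features on day 11.

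Some markers of other cell types also differed between the genotypes. Of the 5 feeder and mesenchymal miRNAs tested, 4 were higher in the Dnmt1 KO on days 3, 6 and 9 (list medians 0.67, 0.52 and 0.86), 3 on day 11 (0.43) and 3 on day 25 (0.48), when 2 were lower. Of all features, 6.24%, 23.0%, 18.4%, 8.64% and 35.0% were called on these days in turn. Their summed level was 14591 to 15764 RPM in controls and 23731 to 26048 RPM in the Dnmt1 KO on day 6, and 21896 to 29196 RPM and 42346 to 48042 RPM on day 9. It did not overlap on day 3 either (22849 to 23327 and 34068 to 44691 RPM), while on day 25 it was lower in both (8945 to 10081 and 6923 to 8020 RPM) and on day 11 in between (18575 to 20498 and 22799 to 25851 RPM). Mir143, of smooth muscle and fibroblasts, rose by 0.73 on day 6 and by 0.95 on day 9, and Mir199a-1 was at 0 in every one of these libraries. The let-7 miRNAs, which accumulate on differentiation, were higher in 1 of 5 cases on day 3, in 4 on day 6 and in all 5 on day 9 (list medians 0.39, 0.64 and 0.83), while none was called on day 11 and 1 was higher and 1 lower on day 25. The let-7 count of day 25 is near the share of all features called on that day, and nothing is read from it. With median-ratio scaling only 1 let-7 miRNA was called on day 6. Their part in the lower level of the cluster was not tested. In controls, day 25 differed from day 1 in the same lists, with 5 of 5 feeder and mesenchymal miRNAs lower (median -3.48), 5 of 5 let-7 miRNAs lower (median -3.66) and 7 of 7 miRNAs of the miR-290-295 cluster higher (median 0.70), where 50.9% of all features were called.

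Features whose level followed the sum of the 5 miRNAs over the 12 group means of the time course were ranked by Pearson's r among 282 miRNAs with enough reads. The 5 most alike were Mir18b (0.965), Mir653 (0.960), Mir488 (0.932), Mir92-2 (0.901) and Mir19b-2 (0.895), and the same 5 led by Spearman's rank correlation. These are descriptions over 12 points that share libraries and their depth. Over the 10 groups of days 1 to 11 alone, 2 of these 5 remained, and Mir363 (0.985) and Mir106a (0.971) led. Mir18b, Mir92-2 and Mir19b-2, like Mir363 and Mir106a, lie together on the X chromosome between 50094870 and 50095744 on the minus strand (NCBIM37). Mir18b stood at 385 RPM in controls and 218 RPM in the Dnmt1 KO on day 6, at 300.1 and 171 RPM on day 9, at 129.5 and 108 RPM on day 11 and at 519 and 268 RPM on day 25. Mir653 stood at 46.9 and 16.4 RPM on day 6 and at 81.8 and 35.0 RPM on day 25. All 5 were picked for likeness to the cluster over these same groups, so that nothing is read from a shared course.

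Around Larp7, 10 other features lay within 500 kb. None averaged over 10 RPM in the time course, the highest mean being 2.66 RPM, so that no neighbour could be tested beside the cluster.

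In the AGO2 pull-down, no member was called lower in the Dnmt1 KO. The sum of the 5 miRNAs was 953, 1242, 108 and 145 RPM in control replicates 1 to 4 and 1251, 1391, 281 and 229 RPM in the Dnmt1 KO. In both genotypes replicates 1 and 2 were several times higher than replicates 3 and 4, and the groups overlapped. Fold changes over all 4 replicates were 0.39 ± 0.90 for Larp7, 0.27 ± 0.91 for Mir302a, 0.26 ± 0.87 for Mir302b, 0.38 ± 0.87 for Mir302c, 0.48 ± 0.91 for Mir302d and 0.97 ± 0.94 for Mir367. None was called, where 36.4% of the 456 features tested in these libraries were (limma, 0 of 6 members at an unadjusted p below 0.05). The 95% interval for Larp7 was -1.66 to 2.44 in this fit, which takes the libraries as unpaired. For each of the 4 replicate numbers the sum was higher in the Dnmt1 KO library, although same-numbered libraries were not shown to be pairs. With the replicate number as a block in limma, Larp7 was at 0.39 ± 0.21 (adjusted p = 0.205). The difference between the pull-down and total RNA was not tested. The sign of 5 members turned negative under TMM over all features, and the same 5 turned negative without Dnmt1 KO replicate 2 or without control replicate 3. In 2 comparisons added after the data were seen, replicates 1 and 2 alone gave no call (Larp7 0.07 ± 0.18). Replicates 3 and 4 alone gave Larp7 (0.71, adjusted p = 0.0311), Mir302b (0.74, adjusted p = 0.0311) and Mir367 (1.35, adjusted p = 0.000898) as higher in the Dnmt1 KO. Each set 2 libraries against 2. The share of all features called in them is not given here, and nothing is read from their calls. The pulled-down RNA of control libraries was read 11497724 to 25422978 times and that of Dnmt1 KO libraries 1152390 to 11520126 times, so that depth differed with genotype.

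The order within the cluster was partly different in the pull-down. Per kilobase, Mir302a was the highest member in 5 of 8 AGO2 libraries and Mir302d in 3 of 8. Mean shares were 38.3% and 41.5% for Mir302a, 35.2% and 32.8% for Mir302d, 20.1% and 21.7% for Mir302b, 5.23% and 3.05% for Mir367 and 1.11% and 0.97% for Mir302c in Dnmt1 KO and control libraries. Larp7 reads outside the miRNAs numbered 0 to 8 per AGO2 library, and Dnmt1 KO minus control was -0.147 RPM (exact permutation p = 0.2, smallest possible 0.0286). The miR-290-295 cluster was at 193155 to 283378 RPM in these libraries. In the pull-down 4 of 6 members of the miR-17 family (median -0.58) and 2 of 5 hairpins with the miR-367 seed (median -0.34) were lower in the Dnmt1 KO. Of the miR-290-295 cluster 2 were higher and 1 lower (median 0.13). With 36.4% of all features called in the pull-down, the counts of 2 of 5 and 3 of 7 are near the background. TMM over all features moved the median of all features by -0.87 and with it the median of the miR-290-295 cluster to -0.78, while the medians of the other 2 lists stayed negative. The feeder and mesenchymal miRNAs summed to 10269 ± 4193 RPM in the control pull-downs (SD, n = 4) and to 22735 ± 8019 RPM in those of the Dnmt1 KO, and their part in these values was not tested.

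**Figure D5:**
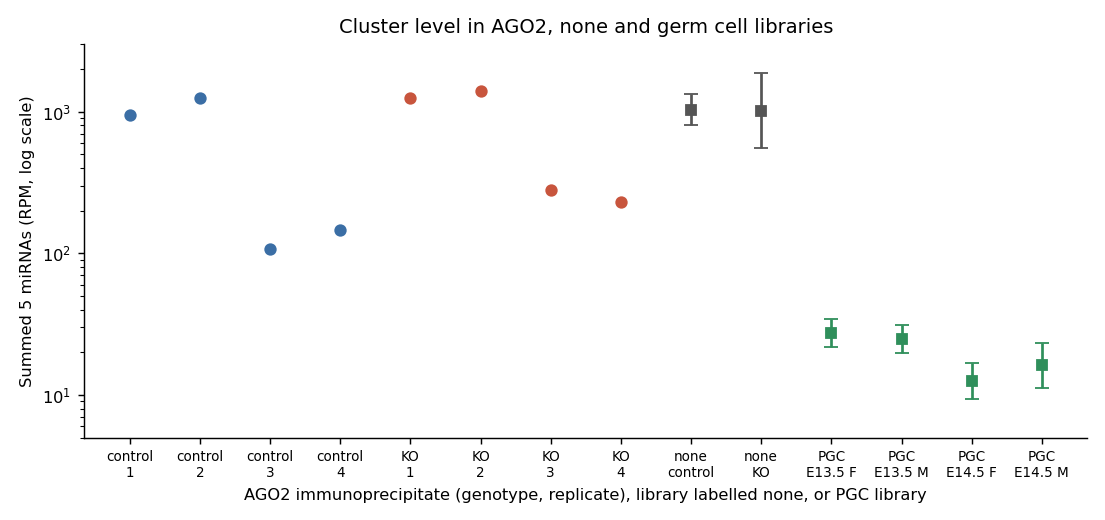
Summed RPM of the 5 miRNAs on a log axis in each AGO2 library, in the 2 libraries titled none and in 4 single PGC libraries, with Wilson 95% intervals of counting error for the single libraries. AGO2 replicates 1 and 2 lie between 953 and 1391 RPM, AGO2 replicates 3 and 4 between 108 and 281 RPM, and the PGC libraries between 12.5 and 27.4 RPM.

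The libraries titled none, whose preparation the labels do not describe, were shallow, with 57155 reads in the control and 9830 in the Dnmt1 KO. They held 59 reads of the 5 miRNAs (1032 RPM, Wilson 95% interval 800.4 to 1331) and 10 reads (1017 RPM, 553 to 1872), near the level of AGO2 replicates 1 and 2. Both intervals held the levels of AGO2 control replicates 1 and 2. They also held the time course means of day 1 (1067 RPM in controls, 1052 RPM in the Dnmt1 KO) and of day 25 controls (929 RPM). The level thus does not place these libraries with either set. All such intervals cover counting error only.

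PGCs carried few reads of the cluster. The sum of the 5 miRNAs was 27.4 RPM (77 reads, Wilson 95% interval 21.9 to 34.2) in female and 24.9 RPM (74 reads, 19.8 to 31.2) in male PGCs at E13.5. At E14.5 it was 12.5 RPM (43 reads, 9.29 to 16.9) in female and 16.1 RPM (28 reads, 11.17 to 23.3) in male PGCs. All 4 libraries lay below the lowest ESC library of the time course (95.6 RPM), and with 1 library per sex and stage there was no replicate check. Their miR-290-295 miRNAs summed to 12176 to 24352 RPM, also below the ESC range. The share of Larp7 reads outside the 5 miRNAs was 6.1% to 21.8% in PGCs, from 3 to 12 reads, against at most 2.67% in the time course. As a level these reads stood at 1.73 to 3.49 RPM in PGCs. On days 1 to 11 of the time course their range was -3.45 to 4.07 RPM, with a median of 0.90 RPM. The larger share thus goes with the lower level of the miRNAs. Whether the level of these reads was also higher in PGCs was not tested.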

How the data were processed

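Small RNA libraries were prepared with an Illumina kit. Per the study's methods and the submitters' processing notes, the authors trimmed reads with Trim Galore 0.3.5, aligned them with Bowtie2 2.2.9 to NCBIM37, kept lengths of 20 to 24 nt and quantified features in SeqMonk. The deposited values are RPKM, from which RPM was computed as RPKM times the feature's length in kilobases. Whole reads were recovered from the steps in RPM and used for depth and intervals. The authors tested miRNAs with DESeq2 and an intensity filter. Here, since the deposited values are RPKM and not counts, limma 3.58.1 (R 4.3.3) was fitted to log2(RPM + 1) after TMM scaling (trims of 30% and 5%), with 2582 features in the time course and 456 in the AGO2 fit, each with at least 10 RPM in at least 3 libraries. p-values were Benjamini-Hochberg adjusted over all of them, and a call is an adjusted p below 0.05. Self-tests on simulated data were run first. Python 3.11.15, numpy 2.4.6 and scipy 1.17.1 gave permutation tests and Wilson intervals.

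The members and lists were chosen with earlier results of these data known. Named were the 6 members, the lists by their counts, medians, 2 most abundant members and seed sharers, and the 5 miRNAs most alike. Replicate pairs differed by more than sampling noise (48 pairs, lowest chi-square per degree of freedom 2.12), so that each counted as 1 library. In the AGO2 set, r of same-numbered libraries was 0.194 to 0.386, and r with other numbers reached 0.385. For replicates 1 and 3 the highest r was with another number, so that this check does not show pairs. The replicate block is given there as an alternative, and it changed no call. Alternatives were other scalings, pseudocounts and filters, the R1-suffixed libraries, a replicate block and leaving out each library. Sequences came from RefSeq (GRCm38.p6).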

Additional observations from a re-analysis of the deposited data

Results flagged for a closer look

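The genotype difference of the members changed between days by the interaction test of the limma fit, and these changes are listed because 2 days differed under the same contrast. From day 3 to day 6 the log2 difference between Dnmt1 KO and control moved by -1.40 in Larp7, -1.41 in Mir302b, -1.44 in Mir302a and -1.41 in Mir302d. From day 9 to day 11 it moved by 1.52 in Larp7, 1.37 in Mir302b, 1.55 in Mir302c, 1.73 in Mir302a, 1.40 in Mir302d and 1.56 in Mir367, as the control level fell to that of the Dnmt1 KO. From day 11 to day 25 it moved by -0.99 in Larp7, -0.89 in Mir302b, -1.29 in Mir302c, -1.13 in Mir302a and -0.92 in Mir302d. The values of Larp7 are those of the miRNAs counted again.

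In the AGO2 Dnmt1 KO libraries, replicate 3 stood apart from the other 3 in the Larp7 reads outside the miRNAs, at 0.296 RPM against 0, which is 1 read. Of 16 groups looked at for such a library, chance alone would mark about 1 in 20.

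The cluster was also read in libraries that entered no comparison. The libraries titled none held 1032 RPM (control) and 1017 RPM (Dnmt1 KO) of the 5 miRNAs. The single PGC libraries held 27.4 RPM and 24.9 RPM (female and male, E13.5) and 12.5 RPM and 16.1 RPM (female and male, E14.5), and the R1-suffixed male library of E14.5 held 9.03 RPM. All of these lay above the 3 reads that a count of 0 allows.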

How the results depend on the processing

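All 6 members kept their call on days 6 and 9 under every scaling, pseudocount and filter and without any 1 library, except that Mir302c and Mir367 missed the threshold in the R1-suffixed libraries. On day 3 the count of 3 became 1 without a filter, 6 with a replicate block, 0 in the R1-suffixed libraries and 1 to 4 without 1 library. The change from day 1 to day 3 had 1 call with library totals or TMM over all features and 0 to 1 without 1 library. Control day 25 against day 1 had 0 calls with library totals or no filter, 5 with TMM over all features and 0 to 3 without 1 library. In that comparison TMM over all features moved the median of all features by -0.20. The shares of all features called under these alternatives are not given here. The AGO2 count was 3 with replicates 3 and 4 alone, from which nothing is read. TMM over all features and the split of the AGO2 replicates were chosen after the data were seen. Of the 5 most alike features 2 remained over days 1 to 11. Of 259 counts of members under an alternative, 244 stayed within 1.5 times the reported count. The cause of these changes was not tested.

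Fold changes of members that were not called turned sign as follows. On day 1 they became 0.034 (Mir302b) and 0.074 (Mir302d) with library totals, 0.030 (Larp7), 0.077 (Mir302b) and 0.12 (Mir302d) with TMM over all features, and 0.042 (Mir302b) and 0.012 (Mir302d) in the R1-suffixed libraries. On day 11 they became -0.061 (Mir302c) and -0.029 (Mir302d) with library totals. In the R1-suffixed libraries of day 11, against those titled WT, they became 0.16 (Mir302b) and -0.13 (Mir302c). The change from day 1 to day 3 of Mir302c became 0.064 in the R1-suffixed libraries. The change from day 6 to day 9 became -0.020 (Mir367) with library totals, and -0.023 (Mir302b) and -0.17 (Mir367) in the R1-suffixed libraries. In the AGO2 fit, TMM over all features gave -0.52 (Larp7), -0.63 (Mir302a), -0.64 (Mir302b), -0.39 (Mir302c) and -0.43 (Mir302d). Replicates 1 and 2 alone gave -0.22 (Mir302b) and -0.089 (Mir302a). Without 1 library each, AGO2 fold changes ranged from -0.149 to 0.917 (Larp7), -0.237 to 0.820 (Mir302a), -0.255 to 0.819 (Mir302b), -0.206 to 0.966 (Mir302c) and -0.085 to 0.947 (Mir302d). Those of day 11 ranged from -0.072 to 0.237 (Larp7), -0.224 to 0.193 (Mir302c), -0.092 to 0.275 (Mir302d) and -0.0074 to 0.253 (Mir367), that of Mir302d on day 1 from -0.095 to 0.047, and the change of Mir367 from day 6 to day 9 from -0.026 to 0.362.

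With a replicate block the AGO2 fold change of Larp7 was 0.39 ± 0.21 (limma, adjusted p = 0.205), and the member calls that the block changed were those of day 3 between genotypes and Mir367 in controls from day 1 to day 3 (-0.66, now called). In the time course same-numbered libraries did not deviate together (r from -0.066 to 0.047), so that they share only a number. The Larp7 reads outside the miRNAs differed by 1.28 RPM with the replicate block (permutation p = 0.0314) and by 0.688 to 1.79 RPM without 1 library. Day 25, with 521066 to 815523 reads per library, limits the values of Mir302c and Mir367.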
